A study of Mus musculus with 5 samples.

Results

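Purine breakdown in the ileal epithelium was followed through 8 genes, taken by symbol from the 27998 genes of the deposited gene table. They are Enpp3 and Nt5e (nucleotide breakdown at the cell surface), Slc28a2 (nucleoside uptake), Ada, Pnp and Upp1 (nucleoside breakdown inside the cell), and Gda and Xdh (the steps from guanine and hypoxanthine towards urate). All 8 symbols were found, each in a single entry of the table. Expression was measured by droplet single-cell RNA sequencing of gut epithelium. The C57BL/6 mice were 8 to 12 weeks old, and the tissue was distal small intestine, here called ileum. The control group of 3 libraries (sham 1 to 3) came from mice after sham surgery, and the other 2 libraries (resection 1 and 2) from mice after small bowel resection, in which a length of small intestine is removed. No genotype, transgene or drug is named in the labels for either group, and the time after surgery is not given there.

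Purine nucleotides in the gut lumen and in dying cells are broken down stepwise. Enzymes on the cell surface strip the phosphates, and transporters take up the nucleosides. Ada turns adenosine into inosine, Pnp splits inosine and guanosine into base and sugar phosphate, Gda turns guanine into xanthine, and Xdh oxidises hypoxanthine and xanthine to urate. Upp1 does for uridine, a pyrimidine nucleoside, what Pnp does for purine nucleosides. Enterocytes are born in the crypt, move up the villus and are shed at its tip, and Ada, Nt5e and Slc28a2 are known in the mouse as genes of the villus tip.

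After filtering, 18235 of 19404 cells were kept, 1283 to 6701 per library, with deposited totals of 11749028 to 41281731 UMIs (unique molecular identifiers, which count single RNA molecules). Of these, 11352 cells lay in 10 enterocyte-like clusters and 3246 in immature enterocyte-like clusters, and the other classes were T cell-like, Paneth-like, cycling-like and, as mucus-secreting cells, goblet-like. All 10 enterocyte markers were detected in the enterocyte-like cells of every library. In their clustering, sham 1 stood with resection 1 and the other 3 libraries stood together, so that each of these sets held both surgery groups. Any pair of libraries shared 6 to 47 cell barcodes, at most 1.498% of the smaller library.

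Enterocyte maturity was read from 7 genes known for the villus tip (such as Clec2h, Klf4 and Egfr) and 9 known for its bottom (such as Gsdmc2, Lypd8 and Nlrp6), none of them among the 8 purine genes. The tip share of these landmark UMIs was computed for each of 14598 cells (the immature class and the enterocyte-like class together), and each library was divided into 5 bins of equal cell number, called bottom bin (1) to tip bin (5). The bins are ranges and not cell types: 20.3% of the cells lay within 0.05 of the boundary of the tip bin. Position on a real villus was not measured. Levels are CPM, the UMIs of a gene scaled to a common total, from the summed counts of a bin or class in 1 library, and the median depth of a cell fell from 4851 to 6338.5 UMIs in the bottom bin to 3494 to 5429 in the tip bin.

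Of the 8 genes, 7 had enough counts to be tested between tip and bottom, and all 7 were higher at the tip (edgeR, adjusted p below 0.05). Over all 9687 genes tested, 31.7% were higher at the tip and 32.1% lower (63.8% in either direction), and the median log2 change was -0.011. Nt5e did not pass the filter on low counts, and Enpp3, with at most 5 UMIs in any bottom bin, passed it through its tip-bin counts. Gda, Xdh, Upp1 and Pnp climbed at most steps of the axis, while Ada, Slc28a2 and Enpp3 rose unevenly.

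**Figure D1:**
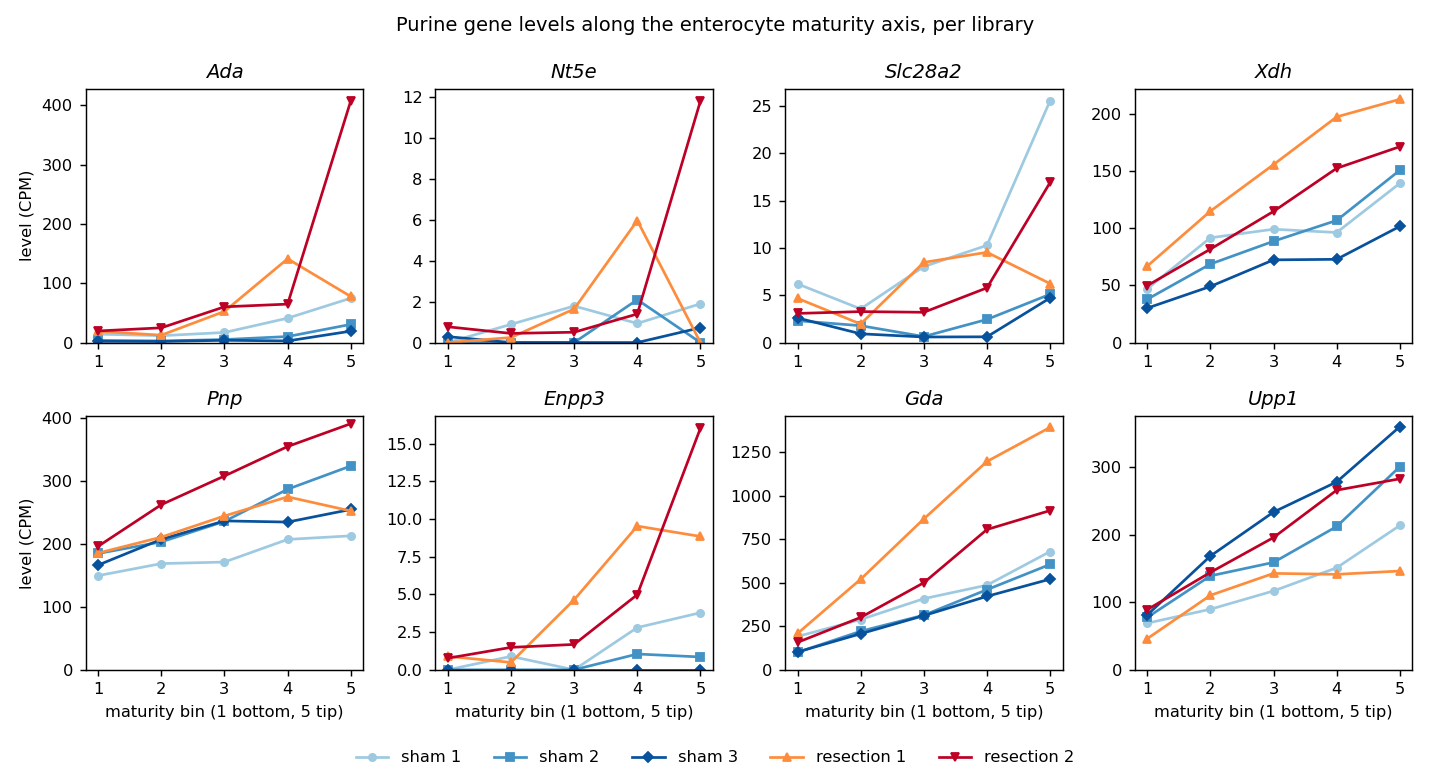
Level of each gene (y axis, CPM on a linear scale that differs between panels) in the 5 maturity bins (x axis, 1 bottom to 5 tip), with 1 line per library. Gda rose at each step in all 5 libraries, while Ada in resection 2 went from 19.5 CPM in the bottom bin to 407 CPM in the tip bin.

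Gda, guanine deaminase, stood at 191, 100 and 102 CPM in the bottom bin of sham 1, 2 and 3 and at 209 and 158 CPM in that of resection 1 and 2. In the tip bin it reached 680, 606 and 521 CPM in the sham libraries and 1394 and 915 CPM in the resection libraries. Every library rose at every step of the axis, and no tip value overlapped a bottom value. The log2 change was 2.71 ± 0.15 (SE, adjusted p = 2.66e-08, edgeR), and the ratio within a library ran from 3.55 to 6.68.

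Xdh, xanthine dehydrogenase, which yields urate, rose from 47.0, 37.8 and 30.1 CPM to 139, 151 and 102 CPM in sham 1, 2 and 3. In resection 1 and 2 it rose from 66.7 and 49.7 CPM to 213 and 171 CPM. The tip value was the highest of the 5 bins in all 5 libraries, and 4 libraries rose at each step. The log2 change was 2.05 ± 0.11 (SE, adjusted p = 1.77e-08, edgeR). The fitted changes use a further scaling of the sums (TMM), so they need not equal CPM ratios, which for Xdh were 2.96 to 3.98.

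Upp1, uridine phosphorylase, rose from 69.1, 77.6 and 81.2 CPM to 214, 301 and 360 CPM in the sham libraries. In resection 1 and 2 it rose from 46.1 and 89.1 CPM to 146 and 283 CPM. Bottom and tip values did not overlap. The log2 change was 2.11 ± 0.12 (SE, adjusted p = 2.66e-08, edgeR), and resection 1 was the lowest library at both ends.

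Pnp, purine nucleoside phosphorylase, had the shallowest slope of the tested genes. Its sham levels went from 150, 185 and 167 CPM to 213, 324 and 255 CPM, and its resection levels from 186 and 196 CPM to 253 and 391 CPM. The ratio within a library was 1.36 to 1.99, with a log2 change of 0.97 ± 0.12 (SE, adjusted p = 9.47e-06, edgeR). The tip bin was higher than the bottom bin in 5 of 5 libraries. Pnp (GRCm38 chromosome 14, 50944517 to 50963136) overlaps its neighbour Pnp2 (50955992 to 50964749) on the same strand. In the last 500 bases of their transcripts, where this chemistry reads, 341 bases could be aligned and 79.8% of them were identical, so part of the counts may have been split between these genes. Pnp2 had a log2 change of 1.14 ± 0.13 (SE, adjusted p = 7.28e-06, edgeR).

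Ada, adenosine deaminase, started at 14.2, 3.75 and 2.02 CPM in the bottom bin of sham 1, 2 and 3. In resection 1 and 2 it started at 18.9 and 19.5 CPM. In the tip bin it stood at 74.8, 30.6 and 19.2 CPM in the sham libraries and at 77.6 and 407 CPM in the resection libraries. Each library was higher at the tip, by 4.11 to 20.8 times, but resection 1 peaked in bin 4, at 141 CPM. The log2 change was 3.43 ± 0.31 (SE, adjusted p = 8.20e-07, edgeR).

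Slc28a2, the sodium-coupled transporter of purine nucleosides, was scarce throughout. Its bottom-bin levels were 6.20, 2.31 and 2.60 CPM in the sham libraries and 4.67 and 3.08 CPM in the resection libraries. The tip-bin levels were 25.6, 5.10 and 4.71 CPM, and 6.22 and 16.9 CPM. All 5 libraries were higher at the tip, but none rose at each step, and the lowest tip values overlapped the highest bottom value. The log2 change was 1.79 ± 0.30 (SE, adjusted p = 0.000191, edgeR). Over their last 500 bases, Slc28a2 transcripts were identical to those of the neighbouring gene Gm14085 at 489 of 496 aligned bases, and Gm14085 had 0 UMIs in every class, so reads of the pair that matched both may not have been counted.

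Enpp3, an ectoenzyme that hydrolyses nucleotides on the cell surface, had no UMI in the bottom bin of any sham library, against 0.890 and 0.770 CPM in resection 1 and 2. In the tip bin it stood at 3.79, 0.851 and 0 CPM in the sham libraries and at 8.85 and 16.03 CPM in the resection libraries. Summed over libraries, 9 UMIs in the bottom bin stood against 105 in the tip bin, of which resection 1 gave 27 and resection 2 gave 72. The fitted log2 change was 4.23 ± 0.42 (SE, adjusted p = 3.58e-06, edgeR), a size that depends on how empty bins are handled.

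Nt5e, the ectoenzyme that makes adenosine from AMP, had 6 UMIs in the bottom bin and 57 in the tip bin over all libraries. Of the 57, 53 were from resection 2 (11.8 CPM), 2 each from sham 1 and sham 3 (1.89 and 0.725 CPM) and 0 from sham 2 and resection 1. Resection 1 had its highest Nt5e level in bin 4, at 5.96 CPM. At this depth a rise of Nt5e towards the tip rested on resection 2, and the other libraries held at most 2 UMIs in that bin.

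The upper end of the axis differed between libraries when each was divided into 20 parts of equal cell number. In the last part of resection 2 (271 cells), Ada reached 897 CPM, Slc28a2 52.0 CPM, Enpp3 36.0 CPM and Nt5e 26.5 CPM, each its highest value in that library. In sham 3 the last part (105 cells) held 49 of the 88 Ada UMIs of the axis and 13 of the 29 Slc28a2 UMIs. Sham 2 also had Ada and Slc28a2 highest there, at 91.0 and 13.3 CPM. In resection 1, by contrast, Ada was highest in part 16, at 321 CPM against 95.4 CPM in the last, as were Slc28a2 (18.4 against 9.40 CPM) and Nt5e (9.81 against 0 CPM). Sham 1 had Ada and Slc28a2 highest in part 19, at 186 and 66.0 CPM against 66.1 and 27.2 CPM in the last.

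To allow for depth, each cell was thinned to 2000 UMIs, which left out no cell. The share of cells with an Ada UMI was then 2.22% in the bottom bin and 10.2% in the tip bin (7.15% and 15.3% before thinning, median depths 5318.5 and 4262 UMIs). For Gda it was 25.2% and 76.4% (49.8% and 92.9% before thinning), for Xdh 9.65% and 27.8%, for Upp1 14.99% and 37.4%, and for Pnp 31.6% and 46.4%. The rarer genes stayed rare, with Enpp3 at 0.0684% and 1.27%, Slc28a2 at 0.548% and 1.23%, and Nt5e at 0.103% and 0.514%. In Paneth-like cells, an epithelial class of the crypt base whose median depth was 9925.5 UMIs, the thinned shares were 3.68% for Ada and 13.1% for Gda.

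The rare genes were carried by few cells. In the tip bin, the 5% of cells with the most Ada UMIs held 69.6% to 100% of all Ada UMIs of a library, while for Gda the corresponding 5% held 11.3% to 18.4%. Such a share rises as UMIs become few: in sham 3 only 10 tip cells had an Ada UMI, fewer than the 22 counted as the top 5%. In resection 2, where Ada and Pnp had like tip-bin counts (1830 and 1758 UMIs), the shares were 73.6% and 16.7%. Gda was detected in 84.4% to 98.7% of the tip cells of a library and Ada in 2.38% to 25.5%. A cell with 5 or more Ada UMIs was called Ada-high, a limit chosen after the values were seen, and what follows is a description with no test. Of the 14598 cells on the axis, 165 were Ada-high (1.13%), and 106 of them lay in the tip bin. They numbered 6 of 942 cells in sham 1, 5 of 3016 in sham 2, 5 of 2109 in sham 3, 31 of 3101 in resection 1 and 118 of 5430 in resection 2. Their share was 0.637%, 0.166% and 0.237% in the sham libraries and 0.9997% and 2.17% in the resection libraries. These cells were picked by their Ada counts, so the shares follow the Ada level and are no separate difference between groups.

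The same 165 cells, with 0.989% of all UMIs on the axis, held 74.3% of the Nt5e UMIs (84 of 113), 48.1% of the Slc28a2 UMIs (192 of 399) and 33.2% of the Enpp3 UMIs (72 of 217). They held 1.79% of Xdh, 1.51% of Gda, 1.32% of Pnp and 1.10% of Upp1 UMIs. These shares lay much nearer to that of all RNA, although Xdh, Gda and Pnp were above it in each of the 5 libraries. Upp1 was above it in all but resection 1. Slc28a2 stood at 231 CPM in Ada-high cells against 2.48 CPM in the other cells of the axis, and Nt5e at 101 CPM against 0.348 CPM. The pattern was seen in each library for Nt5e and Slc28a2. Of the Nt5e UMIs, 3 of 6 in sham 1 and up to 88.9% (resection 1) lay in Ada-high cells, and of the Slc28a2 UMIs 14.3% to 60.2%. In the tip bin of sham 3, 5 Ada-high cells held all 13 Slc28a2 UMIs. In that of resection 2, 86 of 1086 cells held 72 of 76 Slc28a2 and 47 of 53 Nt5e UMIs.

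**Figure D2:**
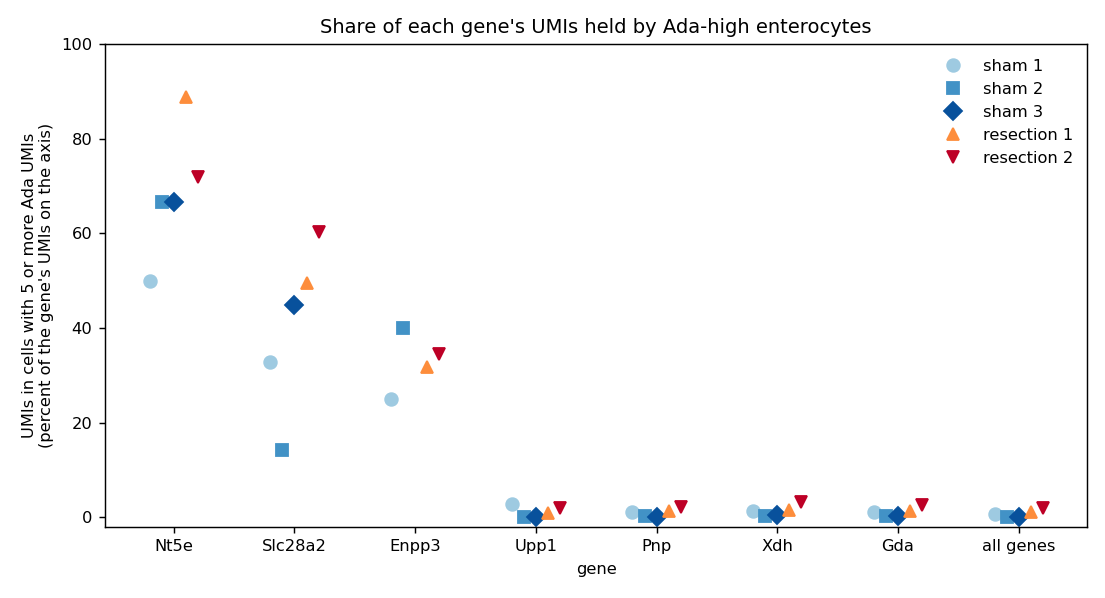
Percent of the UMIs of each gene on the maturity axis (y axis) that lay in cells with 5 or more Ada UMIs, for the other 7 genes and for all genes together (x axis), with 1 point per library. Nt5e, Slc28a2 and Enpp3 stand far above the all-gene share in the libraries plotted, whereas Upp1, Pnp, Xdh and Gda lie closer to it. Enpp3 has no point for sham 3, which had no Enpp3 UMI.

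Pooled, Ada-high cells lay further along the axis than the rest (median landmark share 0.467 against 0.25) at like depth (median 4484 against 4864 UMIs). Of the 165 cells, 118 were from resection 2. In resection 1, 7 of 31 lay in the tip bin and 13 in bin 4. The 10 enterocyte markers summed to 76668 CPM in Ada-high cells and 29972 CPM in the others, pooled. The sum was higher in Ada-high cells of every library, with 31754 against 27403 CPM in resection 1 and 96538 against 45333 CPM in resection 2. In sham 1, 2 and 3 it was 23907, 53408 and 77977 CPM against 13384, 24680 and 16743 CPM. Pooled, the 8 T cell markers summed to 226 CPM in Ada-high cells against 85.1 CPM in the others. That sum was 664 CPM in resection 1 against 41.2 CPM in its other cells, and 98.6 CPM against 99.9 CPM in resection 2, 0 in sham 3, 58.3 CPM in sham 2 and 102 CPM in sham 1. In resection 2, with 55 T cell marker UMIs, the Ada-high cells thus had no more T cell marker RNA than the other cells. The sums of sham 1, 2 and 3 rested on 4, 1 and 0 UMIs, too few for a comparison. The 8 enteroendocrine markers summed to 201 CPM in Ada-high cells and 105 CPM in the others, and were higher in Ada-high cells in 4 of 5 libraries, all but sham 1. This rested on 167 UMIs of 4 detected markers, 126 of them from resection 2. The part of T cell RNA in the resection 1 values, and of enteroendocrine RNA in any, was not tested.

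The sequences just before the transcription start are shown for the 4 genes that shared the Ada-high cells and for Gda, of whose UMIs those cells held 1.51%. They are RefSeq sequences of build GRCm38.p6, the 250 bases before the start, read 5′ to 3′ on the gene's strand, and 7 of the 8 genes had an entry (all but Xdh). Capitals mark matches on either strand to 1 of 4 short motifs of factors known in enterocytes. For the HNF4 family the letters searched were CAAAGT, found in 12.6% of the 32851 RefSeq promoters in windows of the same length. For the GATA family they were AGATAA, found in 9.99% of them. For the CDX family they were TTTATNG, found in 9.81%, and for AP-1 they were TGANTCA, found in 6.75%. These motifs do not overlap one another in the windows shown.
Ada, chr2:163750240-163750489, minus strand: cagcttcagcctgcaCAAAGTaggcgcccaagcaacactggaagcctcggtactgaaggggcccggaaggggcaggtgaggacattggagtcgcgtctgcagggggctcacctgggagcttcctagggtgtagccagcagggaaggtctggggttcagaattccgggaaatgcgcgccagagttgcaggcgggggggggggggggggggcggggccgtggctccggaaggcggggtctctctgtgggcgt
Slc28a2, chr2:122426185-122426434, plus strand: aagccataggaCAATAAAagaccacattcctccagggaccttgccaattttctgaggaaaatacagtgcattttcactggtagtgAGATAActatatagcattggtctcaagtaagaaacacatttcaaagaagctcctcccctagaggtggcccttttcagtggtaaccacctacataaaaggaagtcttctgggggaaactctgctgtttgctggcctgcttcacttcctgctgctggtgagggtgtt
Nt5e, chr9:88327359-88327608, plus strand: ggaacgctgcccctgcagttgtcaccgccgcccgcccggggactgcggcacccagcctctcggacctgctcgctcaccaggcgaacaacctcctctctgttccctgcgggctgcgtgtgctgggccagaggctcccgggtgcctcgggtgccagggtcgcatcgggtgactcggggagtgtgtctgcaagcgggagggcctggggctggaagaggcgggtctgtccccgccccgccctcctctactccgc
Enpp3, chr10:24836196-24836445, minus strand: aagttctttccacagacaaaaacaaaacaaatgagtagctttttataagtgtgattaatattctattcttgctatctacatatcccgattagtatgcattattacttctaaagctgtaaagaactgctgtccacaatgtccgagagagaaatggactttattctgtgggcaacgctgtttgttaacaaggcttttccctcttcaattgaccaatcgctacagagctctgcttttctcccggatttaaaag
Gda, chr19:21472662-21472911, minus strand: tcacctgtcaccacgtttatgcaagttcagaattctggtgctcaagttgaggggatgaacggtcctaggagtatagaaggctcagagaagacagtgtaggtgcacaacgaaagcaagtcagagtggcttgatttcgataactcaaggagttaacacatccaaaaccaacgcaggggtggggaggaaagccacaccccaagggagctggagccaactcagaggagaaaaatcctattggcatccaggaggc
Ada held 1 HNF4 match, 235 to 230 bases before the start. Slc28a2 held 1 GATA match, at 165 to 160, and 1 CDX match on the opposite strand, at 239 to 233. No match lay in the Nt5e, Enpp3 and Gda windows. The G and C content ran from 36.8% in Enpp3 to 72.0% in Nt5e, and no motif of the 4 was found in more than 1 of these 5 windows. For Enpp3, Gda and Nt5e the RefSeq start lies inside the longer gene model of the annotation (GENCODE), where Enpp3 spans 24772406 to 24842823 on chromosome 10, Gda 21391307 to 21473445 on chromosome 19 and Nt5e 88327197 to 88372092 on chromosome 9. Upp1 has 3 listed starts, and an AP-1 match lay 45 to 39 bases before the first of them.

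The other genes of purine and pyrimidine metabolism are given by role along the axis, beside 31.7% higher and 32.1% lower of all genes tested. A list of 78 genes, which holds the 8, had 48 tested genes, with 21 higher and 17 lower at the tip, and a median log2 change of -0.04. Without the 8 genes, 14 of 41 were higher and 17 lower, counts not far from the shares of all genes. The list median of those 41 was -0.48.

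Extracellular nucleotide breakdown and adenosine receptors formed a group of the list. Of its 7 tested genes, 6 were higher at the tip and none lower, or 5 of 6 without Enpp3. This group holds the peptidase Dpp4, so it is not limited to enzymes that break down nucleotides at the cell surface. Alpi, intestinal alkaline phosphatase, rose by 2.43 ± 0.16 on the log2 scale (SE, adjusted p = 9.33e-08, edgeR). Dpp4, a surface peptidase that binds adenosine deaminase in humans, rose by 2.30 ± 0.15 (adjusted p = 5.50e-08), and Entpd8, an ectonucleotidase, by 1.45 ± 0.12 (adjusted p = 3.81e-07). Enpp1 did not pass (0.83 ± 0.38, adjusted p = 0.0715). Dpp4 went from 83.8 to 186 CPM in the bottom bins to 404 to 915 CPM in the tip bins, with no overlap.

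Transport was mixed, with 4 genes higher and 1 lower of 6, or 3 higher and 1 lower of 5 without Slc28a2. Abcg2, an exporter of urate, rose by 1.16 ± 0.13 (SE, adjusted p = 4.27e-06, edgeR). Slc28a1, the pyrimidine-preferring relative of Slc28a2, rose by 3.66 ± 0.30 (adjusted p = 4.01e-07). Slc28a3, the broadly selective relative, went the other way and fell by 2.18 ± 0.36 on the log2 scale (adjusted p = 0.000160). Its levels were 39.9, 26.8 and 23.1 CPM in the bottom bins of sham 1, 2 and 3 and 24.6, 5.10 and 6.53 CPM in their tip bins. In resection 1 and 2 it fell from 43.2 and 26.2 CPM to 3.93 and 0.890 CPM.

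Inside the cell, 8 of 14 tested genes of nucleotide and nucleoside breakdown were higher at the tip and 5 lower. Without Ada, Pnp and Upp1 these were 5 higher and 5 lower of 11 (31.7% and 32.1% of all genes). The median log2 change went from 0.79 to -0.52. Dpyd, the first enzyme of pyrimidine base breakdown, rose by 1.55 ± 0.12 (SE, adjusted p = 3.14e-07, edgeR). Mtap, which salvages adenine from methylthioadenosine, fell by 3.37 ± 0.54 on the log2 scale (adjusted p = 0.000158). Of the 9 tested salvage genes none was higher and 3 were lower, where 32.1% of all genes were lower. Neither Hprt (0.17 ± 0.12, adjusted p = 0.215, edgeR) nor Aprt (0.08 ± 0.11, adjusted p = 0.566), the enzymes that rescue purine bases, passed the test. In unscaled CPM, Aprt was lower in the tip bin than in the bottom bin of each library. In sham 2 it went from 421 to 331 CPM and in sham 1 from 322 to 311 CPM.

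Of the genes of de novo purine synthesis, 8 of 10 tested were lower at the tip, with a median log2 change of -2.21. Impdh2, the rate-limiting enzyme of guanine nucleotide synthesis, had a log2 change of -2.53 ± 0.23 (SE, adjusted p = 9.34e-07, edgeR). Its levels were 29.2 to 70.5 CPM in the bottom bins and 4.91 to 14.2 CPM in the tip bins, with no overlap. Atic and Gart, enzymes of the pathway to inosine monophosphate, had log2 changes of -3.06 ± 0.24 and -2.85 ± 0.26. Adss, which leads to adenine nucleotides, was the exception among the called genes and rose by 0.65 ± 0.11 (adjusted p = 0.000160).

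**Figure D3:**
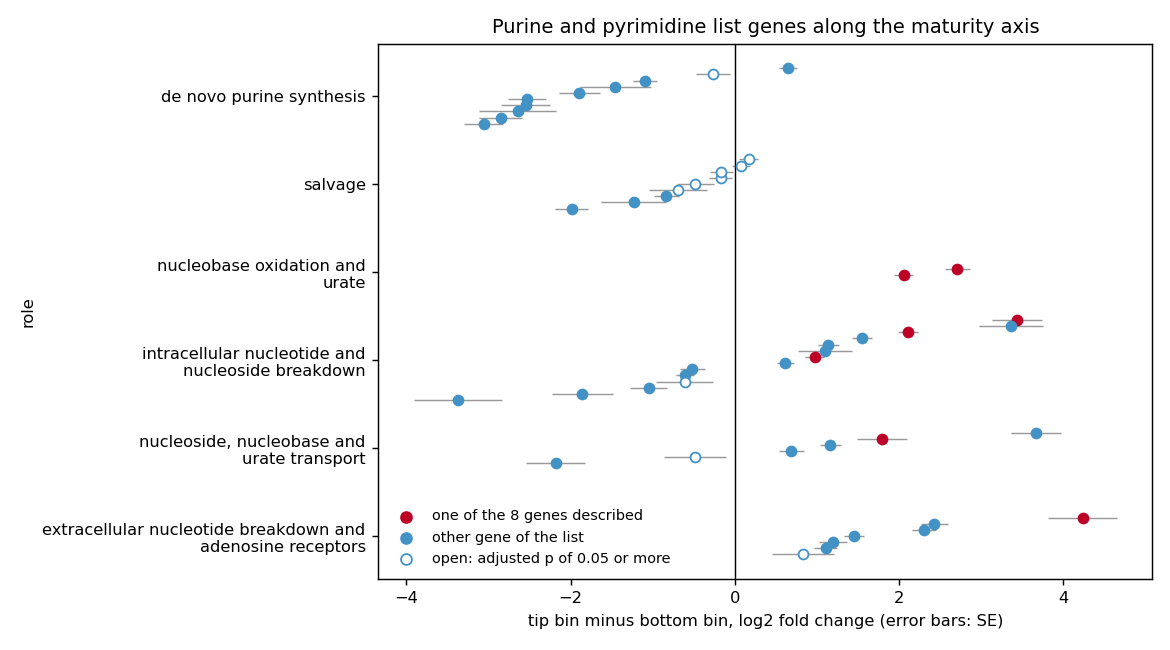
Log2 change from bottom bin to tip bin (x axis, points with SE bars) of the 48 tested list genes, grouped by role (y axis). Red points are the genes described here, blue points other genes of the list, and open points did not pass 0.05. The de novo synthesis genes lie left of 0 apart from Adss, and the group of extracellular nucleotide breakdown and adenosine receptors lies right of it.

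Across cell classes the levels are descriptions, since the classes were built from the same cells. Gda, Xdh and Upp1 were high in enterocyte-like cells and low in Paneth-like and cycling-like cells of every library. Gda had a mean over the 5 libraries of 602 ± 269 CPM (SD, n = 5) in enterocyte-like cells and 344 ± 176 in goblet-like cells. The immature enterocyte-like mean was 104 ± 28.9 CPM, the Paneth-like mean 59.8 ± 39.7 and the cycling-like mean 54.0 ± 20.3. The Paneth-like and cycling-like means did not differ beyond their spread. Between enterocyte-like and goblet-like cells the spreads overlapped, but within each of the 5 libraries Gda was higher in the enterocyte-like cells, from 380 against 162 CPM in sham 3 to 1054 against 603 CPM in resection 1. Pnp was flatter, at 258 ± 46.0 CPM in enterocyte-like, 164 ± 13.7 in the immature class and 32.4 ± 22.6 in Paneth-like cells, with 92.7 to 142 CPM over the libraries in cycling-like cells. Xdh stood at 122 ± 37.2 CPM in enterocyte-like, 81.6 ± 34.0 in goblet-like and 39.7 ± 12.2 in cells of the immature class. Upp1 stood at 205 ± 49.8, 131 ± 31.8 and 52.0 ± 10.5 CPM in the same order.

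Ada stood at 65.6 ± 51.6 CPM (SD, n = 5) in goblet-like and 48.1 ± 46.1 in enterocyte-like cells. It stood at 16.01 ± 12.1 CPM in the immature class, 16.6 ± 15.6 in Paneth-like and 14.3 ± 8.27 in cycling-like cells. These spreads overlap. Goblet-like clusters carried enterocyte RNA, with an enterocyte marker sum of 8904 to 37945 CPM per library against 17554 to 57177 CPM in enterocyte-like cells, and its part in the Ada level was not tested. Of 694 goblet-like cells 14 were Ada-high. Enpp3 stood at 4.45 ± 3.44 CPM in goblet-like and 2.59 ± 2.65 in enterocyte-like cells, from 22 and 202 UMIs.

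T cell-like droplets had the highest class mean for Nt5e, Slc28a2, Ada and Enpp3. The 319 droplets held 34 Nt5e UMIs (31.4 ± 26.3 CPM over 5 libraries, against 1.37 ± 1.13 in enterocyte-like cells) and 49 Slc28a2 UMIs (39.6 ± 58.4 CPM against 5.29 ± 3.83). Nt5e was above the enterocyte-like level in 5 of 5 libraries and was found in 28 of the droplets. This rested on 3, 5 and 1 Nt5e UMIs in sham 1, 2 and 3, and 17 of the 34 came from resection 2. Slc28a2 was above its enterocyte-like level in 4 of 5, in sham 1 from 1 UMI, and 1 droplet held 10 of its UMIs. Thinned to 2000 UMIs, 5.02% of T cell-like droplets had an Nt5e UMI and 5.02% a Slc28a2 UMI, against 0.220% and 0.678% of enterocyte-like cells (median depths 4753 and 4670 UMIs). These droplets also held enterocyte RNA, with a marker sum of 0.670 to 0.955 times the enterocyte-like level over the libraries (0.908 pooled). Pooled, Gda was at 0.704 times its enterocyte-like level, Xdh at 0.769, Pnp at 0.817 and Upp1 at 0.824, and within libraries each lay above the marker ratio in some and below it in others. Nt5e was at 11.4 times and Slc28a2 at 5.85 times. Enpp3 was at 1.89 times, from 11 UMIs, with 42.0 CPM in resection 1, 4.34 in resection 2, 3.63 in sham 2 and none in the other libraries. Ada (146 ± 234 CPM over the libraries) was at 1.99 times, from 0 CPM in sham 1 to 555 CPM in resection 1, and 47 of its 221 UMIs came from a single droplet.

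**Figure D4:**
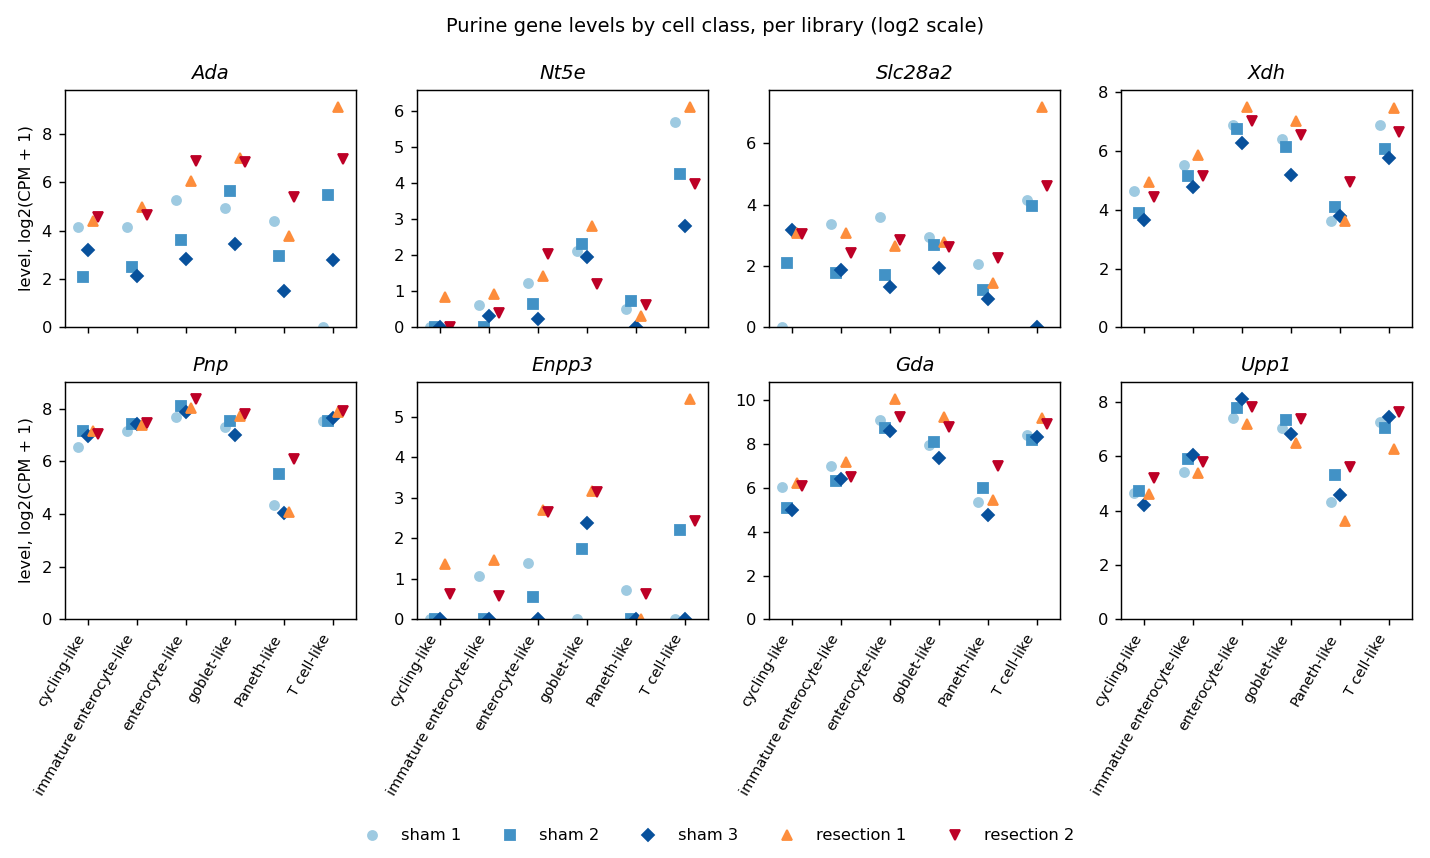
Level of each gene by cell class (x axis), as log2(CPM + 1) of the summed counts (y axis, scale differs between panels), with 1 point per library. Nt5e is highest in T cell-like droplets in every library, though from 1 UMI in sham 3, while Gda, Xdh and Upp1 are low in cycling-like and Paneth-like cells.

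The effect of resection was compared in enterocyte-like cells over the 5 libraries. At an adjusted p of 0.05 edgeR called 0 of the 10405 genes tested (0%), with 481 at an unadjusted p below 0.05, and DESeq2 called 55. None of the 8 genes was therefore called by edgeR. Each resection library exceeded every sham library for Ada, Gda and Xdh, and for Enpp3 and Nt5e. This held for 9.89% of all genes tested, while 7.78% lay below all sham libraries in each resection library. Enpp3 and Nt5e had at most 6 UMIs in a sham library and passed the filter on low counts through the resection libraries, so their place among these genes is no support. The median log2 difference of all genes was -0.021. The enterocyte-like class was made up of different clusters in each library: cluster 2 had 1644 of its 1728 cells from resection 2, clusters 7 and 9 had 1034 of 1052 and 934 of 937 from resection 1, cluster 1 had 1762 of 1904 from sham 2 and cluster 12 had 678 of 706 from sham 3. Clusters 2, 7 and 9 also had the highest Gda (974.6, 1243 and 1134 CPM), and cluster 2 the highest Ada (336 CPM), so surgery and the cluster make-up of these libraries cannot be told apart here. The labels do not say that the libraries are from separate animals, so these p-values measure the spread between libraries only.

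Ada stood at 38.1, 11.1 and 6.17 CPM in sham 1, 2 and 3 and at 66.5 and 118 CPM in resection 1 and 2. The means were 18.5 ± 17.2 (SD, n = 3) and 92.4 ± 36.7 CPM (SD, n = 2), and the ranges did not overlap. The log2 difference was 2.48 ± 0.63 (SE, adjusted p = 0.678, edgeR), while DESeq2 gave 2.45 with an adjusted p of 0.0167. Without the filter on low counts, edgeR gave an adjusted p of 5.08e-06.

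Gda was 546, 421 and 380 CPM in the sham libraries and 1054 and 607 CPM in the resection libraries, with a log2 difference of 0.85 ± 0.32 (SE, adjusted p = 0.986, edgeR). Xdh was 118, 108 and 76.6 CPM against 179 and 128 CPM (0.57 ± 0.28, adjusted p = 0.998). In both genes resection 1 was the highest library, and resection 2 lay just above the highest sham library.

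Enpp3 was 1.63, 0.472 and 0 CPM in the sham libraries and 5.54 and 5.30 CPM in the resection libraries. Its log2 difference was 3.44 ± 0.82 (SE, adjusted p = 0.582, edgeR). DESeq2 gave 3.32 with an adjusted p of 0.0154, and edgeR without the filter gave 3.46 with 2.55e-05. With at most 6 Enpp3 UMIs in a sham library, and a place in the tests owed to the resection libraries, these 2 values are no support. Nt5e was 1.36, 0.566 and 0.167 CPM against 1.69 and 3.08 CPM (2.10 ± 0.69, adjusted p = 0.941). Both genes rest on few molecules, 202 and 104 UMIs over all libraries.

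The remaining genes overlapped between groups. Slc28a2 was 11.2, 2.26 and 1.4996 CPM against 5.31 and 6.20 CPM, and sham 1 was the highest of all. Pnp was 202, 271 and 236 CPM against 257 and 326 CPM (0.26 ± 0.35, adjusted p = 0.998, edgeR), and Upp1 169, 216 and 272 CPM against 144 and 222 CPM (-0.30 ± 0.41, adjusted p = 0.998).

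**Figure D5:**
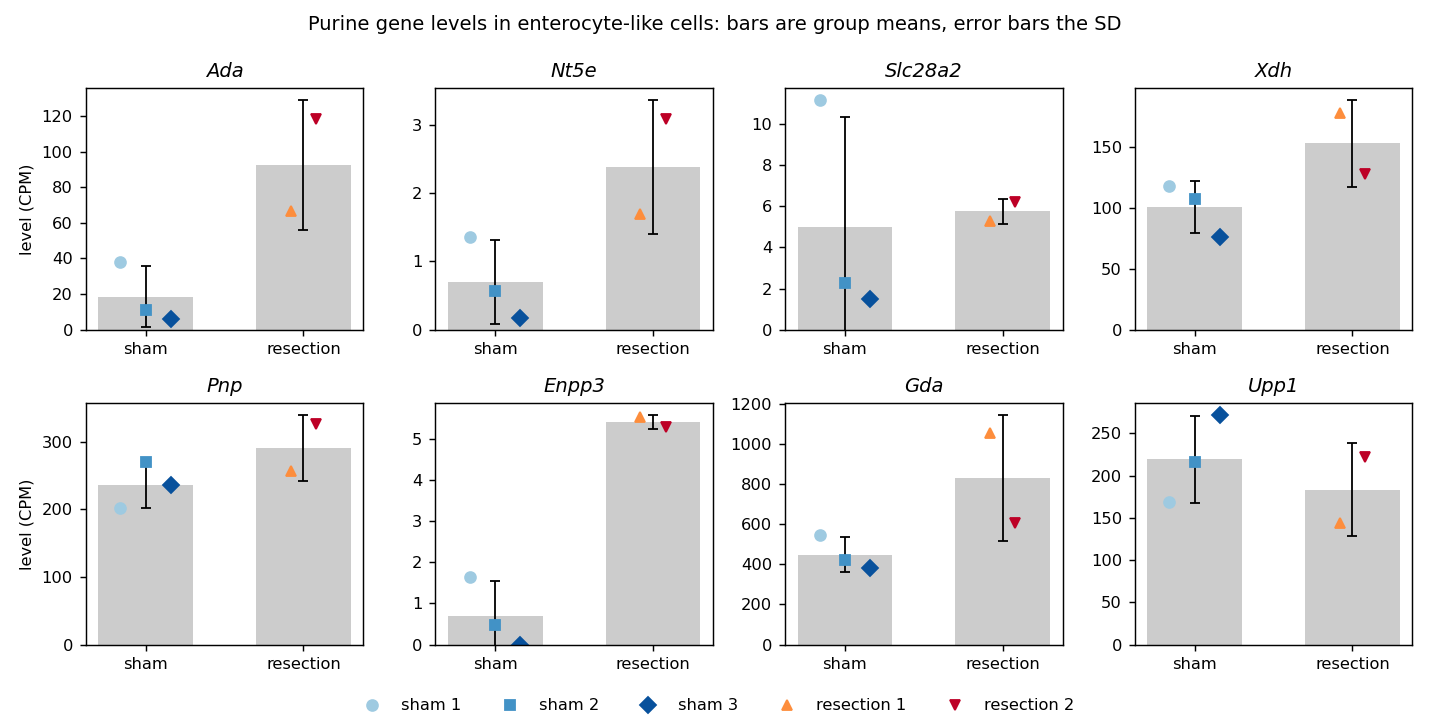
Level of each gene in enterocyte-like cells (y axis, CPM from 0, scale differs between panels) by surgery group (x axis); bars are group means, error bars the SD drawn down to 0 at most (n = 3 sham, n = 2 resection) and points the libraries. Ada, Nt5e, Xdh, Enpp3 and Gda have both resection points above all sham points, and Slc28a2, Pnp and Upp1 do not.

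Some other measures also differed between the surgery groups. The 10 enterocyte markers summed to 17554, 32982 and 21372 CPM in the sham libraries and 37010 and 57177 CPM in the resection libraries. The median landmark share in the tip bin was 0.382, 0.364 and 0.365 in the sham libraries and 0.530 and 0.465 in the resection libraries. The 8 T cell markers, at 63.1 to 121 CPM in sham and 45.1 and 96.6 CPM in resection, overlapped between groups. The part of these in the surgery differences was not tested. The fitted difference of Ada was positive at both ends of the axis and called at neither. In the bottom bin alone it was 1.87 ± 0.53 on the log2 scale (SE, adjusted p = 0.9999, edgeR). In the tip bin alone it was 2.74 ± 0.69 (adjusted p = 0.252). There resection 1 (77.6 CPM) stood close to sham 1 (74.8 CPM), and resection 2 stood at 407 CPM. For Ada, Enpp3, Nt5e, Gda and Xdh the order within the library sets follows from the lack of overlap between groups and adds no support. With the set as a term, the log2 difference of Ada was 2.63 ± 0.56 (adjusted p = 0.172).

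In immature enterocyte-like cells, 6 of the 8 genes could be tested and none was called. edgeR called 0 of 9885 genes (0%) with 145 at an unadjusted p below 0.05, and DESeq2 called 3. Ada alone of the 6 was higher in each resection library than in every sham library (6.59% of all genes, with 4.95% lower). It stood at 17.0, 4.57 and 3.36 CPM in the sham libraries and at 31.0 and 24.2 CPM in the resection libraries. The log2 difference was 1.90 ± 0.48 (SE, adjusted p = 1, edgeR). It was called without sham 1, the highest sham library (2.61 ± 0.30, adjusted p = 0.0308), and in the fit with the replicate number as a block (1.61 ± 0.24, adjusted p = 1.87e-08). Gda (0.22 ± 0.26), Xdh (0.33 ± 0.27), Slc28a2 (0.45 ± 0.50), Pnp (0.04 ± 0.31) and Upp1 (-0.29 ± 0.36) overlapped between groups.

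Whether the rise towards the tip itself differed with surgery was tested as the interaction of bin and group. Of 9687 genes, 1.23% were called (0.134% steeper and 1.09% flatter or more negative in resection), and none of the 7 tested genes was among them. Gda had an interaction of 0.43 ± 0.25 (SE, log2, adjusted p = 0.614, edgeR), and Ada of 0.58 ± 0.59 (adjusted p = 0.850), which became -0.68 without resection 2. For Slc28a2 (0.30 ± 0.61), Enpp3 (-0.58 ± 0.66), Xdh (-0.0051 ± 0.20), Pnp (0.13 ± 0.22) and Upp1 (-0.21 ± 0.23) the estimates lay within 1 SE of 0. With 5 libraries, interactions larger than these errors could also go uncalled, as Alpi did at 0.58 ± 0.26 (adjusted p = 0.446, edgeR). Differences of that kind are therefore not excluded for the 7 genes.

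None of the 51 list genes tested in enterocyte-like cells was called. Without the 8 genes, each resection library exceeded all sham libraries in 5 of 43, near the 9.89% of all genes, and 3 went the other way (7.78% of all genes). The 5 were Adora2b, Entpd8, Slc28a1, Upb1 and Uck1, and the 3 were Slc28a3, Nt5c3 and Umps. After TMM scaling, Adora2b stood at 0.233, 0.630 and 0 CPM in the sham libraries and 3.05 and 1.42 CPM in the resection libraries. It passed the filter on low counts through the resection libraries, so its place among the 5 is no support. Upb1 was also scarce, at 0.467, 2.10 and 1.17 CPM against 4.32 and 4.63 CPM. Slc28a1 had a log2 difference of 0.95 ± 0.35 (SE, adjusted p = 0.986, edgeR), and Adora2b, a low-affinity adenosine receptor, of 2.91 ± 0.90 (adjusted p = 0.879). Adk, which phosphorylates adenosine, stood at -0.81 ± 0.43 (adjusted p = 0.998) and overlapped between groups. The surface enzymes Dpp4 (0.52 ± 0.34) and Alpi (0.44 ± 0.35) overlapped as well.

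The genes most like each of the 8 along the axis were taken by Pearson correlation of log2(CPM + 1) over 25 sums (5 libraries and 5 bins, library means removed), among 4606 genes. The sums of a library share its cells and depth, and the values are descriptions. Gda was most like Cdhr5, a microvillus cadherin (r = 0.996), Xdh most like Clca4b (0.989) and Npc1l1, a sterol transporter (0.989), and Upp1 most like Slc43a2 (0.987) and Pls1 (0.985). Pnp was most like Pnp2 (0.983). Ada was most like Tlcd2 (0.911), Clca4a (0.910) and Susd2 (0.910). Enpp3 was most like Tsc22d4 (0.910), Slc28a2 most like Tmem37 (0.777) and Nt5e most like Ube2j2 (0.671). Among themselves, Gda, Xdh, Upp1 and Pnp had correlations of 0.931 to 0.984, and Ada had 0.844 with Pnp, 0.839 with Slc28a2, 0.831 with Enpp3, 0.791 with Gda, 0.783 with Xdh, 0.756 with Upp1 and 0.661 with Nt5e.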

How the data were processed

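The authors deposited a matrix of UMI counts for each library, raw and not normalized. Per the labels, libraries were made on the 10x Chromium with 3' chemistry and matrices with Cell Ranger, whose version the labels give with a question mark. Builds mm10 and GRCm38 are named in the submitters' processing notes, and the alignment settings are not given in the sources used here. Coordinates are from GENCODE on GRCm38.

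Cells needed 500 genes or more and no more than 20% mitochondrial UMIs, and 720 likely doublets were removed by a simulated-doublet score. Counts scaled to 10000 per cell, 2000 variable genes and 30 components were clustered over all libraries (scanpy 1.11.5, leidenalg 0.10.2, resolution 1) without batch correction. Clusters were named "-like" from marker lists, and other naming can give other classes. The T cell-like and goblet-like classes are 1 cluster each.

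Counts were summed per library and class or bin, so the library is the replicate, and tested with edgeR 4.0.16 (quasi-likelihood, TMM, filterByExpr, two-sided, Benjamini-Hochberg over all genes, threshold 0.05). Library was a block in tests along the axis. DESeq2 1.42.0 was an alternative. CPM in the text is not TMM-scaled unless so stated, while fitted changes are. Along the axis these can therefore differ in size and, as for Aprt, in direction. The tests were checked on simulated counts. All 8 genes are named in every comparison. Of the other list genes, those named are up to 6 per comparison with the lowest p and a mean of at least 20 CPM. Enpp1, Slc28a1, Slc28a3 along the axis, Mtap, Hprt, Aprt, Atic, Gart, Adss, Pnp2 and the genes outside the sham range were named after their values were seen. The genes and lists were chosen with earlier results of these data known. Shares of cells cover counting error only, and UMIs of free RNA enter them.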

Additional observations from a re-analysis of the deposited data

Results flagged for a closer look

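Slc28a3, a nucleoside transporter of the wider list, was the 1 tested list gene whose change along the maturity axis differed between the surgery groups. The interaction was -2.29 ± 0.51 on the log2 scale (SE, adjusted p = 0.0357, edgeR), with a steeper fall towards the tip in resection than in sham. Its tip-bin counts were 26, 12 and 18 UMIs in sham 1, 2 and 3 and 12 and 4 UMIs in resection 1 and 2. The direction was kept under the alternatives run, but the adjusted p was 0.187 without sham 1, 0.0558 without sham 3, 0.1755 without resection 2, 0.142 with doublets kept, 0.178 on the principal component axis and 0.0980 with wider landmark lists.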

How the results depend on the processing

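The tip-to-bottom count of called genes ran from 5390 to 6912 over all alternatives, and each of the 7 tested purine genes stayed higher at the tip in every one. In enterocyte-like cells the count of 0 became 55 by DESeq2 (39 higher), 155 without the filter on low counts and 11 with the library set as a term. Leaving out 1 library gave 0 to 3, the 3 without resection 2. The tip bin alone, an alternative chosen after seeing the data, gave 3. In immature enterocyte-like cells the 0 became 3 by DESeq2, 5 without the filter and 4 with the library set. Leaving out 1 library gave 0 to 1, the 1 without sham 1, and the bottom bin alone, also added later, gave 0. The interaction count of 119 became 289 without the filter, 9 with doublets kept and 194 with 3 bins. It was 10 to 167 when 1 library was left out: 10 without sham 1, 40 without sham 3 and 24 without resection 1. The cause of these shifts was not tested.

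With the replicate number as a block, 50 genes were called in enterocyte-like cells (30 higher) and 142 in immature enterocyte-like cells (28 higher). The labels do not say that numbers pair the libraries, and the groups share only 2 numbers.

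Estimates that changed sign were not called in the fits with all libraries. Leaving out 1 library gave these ranges in enterocyte-like cells: Pnp -0.038 (without resection 2) to 0.51, and Upp1 -0.77 to 0.062 (without resection 1). In immature cells Pnp ran from -0.16 (without resection 2; -0.14 without sham 1) to 0.22, and Upp1 from -0.68 to 0.019 (without resection 1). Among interactions, Ada ran from -0.68 to 1.59, Slc28a2 from -0.86 to 1.10, Pnp from -0.10 to 0.37 and Nt5c3 from -0.83 to 0.087, each changing sign without resection 2. Xdh ran from -0.12 to 0.11 (0.016 without resection 1) and Enpp3 from -1.39 to 0.21 (without sham 1). The principal component axis gave -0.20 for Slc28a2. Xdh became 0.12 with doublets kept, 0.25 with 3 bins and 0.15 with wider landmark lists, and Enpp3 0.14 with 3 bins. Depth limits Nt5e, Enpp3 and Slc28a2, with 113, 217 and 399 UMIs on the axis.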
